A study of Mus musculus with 11 samples.

Results

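The genes for 10 Wnt ligands were described in the hippocampus of adult F1 mice whose mothers had received either a control diet or a diet rich in folic acid (FA) before mating. The ligands are Wnt2, Wnt2b, Wnt4, Wnt5a, Wnt5b, Wnt7a, Wnt7b, Wnt9a, Wnt10a and Wnt16. They were taken by name from the 38293 genes of the count tables after each Ensembl identifier had been matched to its GENCODE symbol on GRCm38, and all 10 were found. The tables list 19 Wnt ligands in all, and the other 9 are given further on for comparison. The mice were wildtype and 14 weeks old, from 129S6/SvEv dams and C57BL/6J sires. In the CD group the dams had eaten 2.3 mg FA per kg diet, and in the FD group 40 mg FA per kg diet until mating. All mice of both groups had the control diet from then on. RNA of the whole hippocampus was sequenced from 6 CD F1 mice (3 males, 3 females) and 5 FD F1 mice (2 males, 3 females), 1 library for each mouse. The labels do not give litters, so that littermates could not be told from unrelated mice. The p-values set group differences against the spread between mice, with each mouse counted as independent. The diet was given to the dams, so littermates would not be independent, and p-values for diet could then be too small.

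Wnt proteins are secreted signals that carry a fatty acid on 1 conserved serine. The acyltransferase Porcn adds this lipid, the carrier Wls takes the ligand to the cell surface, and Frizzled receptors with Lrp coreceptors bind it there. The signal can stabilize beta-catenin, which then acts with TCF factors on target genes, or it can act on cell polarity and calcium without beta-catenin. In the hippocampus, Wnt signals are known for their part in the birth of dentate granule neurons and in the growth of dendrites and synapses.

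The stretch around the lipid-carrying serine shows how alike the ligands are and whether short reads can tell them apart. It lies in 1 coding exon in each of the 10 genes. The coding strand is given here 5′ to 3′ for 2 pairs of related ligands and for the 2 ligands on which the comparisons of diet and sex turn, from GENCODE M21 transcripts, with GRCm38 positions and the serine codon in capitals.
Wnt7a (chr6:91366260-91366304, minus strand): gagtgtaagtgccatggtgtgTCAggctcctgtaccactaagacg
Wnt7b (chr15:85537800-85537844, minus strand): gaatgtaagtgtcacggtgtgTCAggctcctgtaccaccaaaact
Wnt5a (chr14:28522506-28522550, plus strand): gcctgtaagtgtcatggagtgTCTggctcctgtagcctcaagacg
Wnt5b (chr6:119433788-119433832, minus strand): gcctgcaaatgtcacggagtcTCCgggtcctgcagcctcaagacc
Wnt9a (chr11:59330917-59330961, plus strand): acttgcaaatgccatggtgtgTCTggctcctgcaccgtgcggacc
Wnt16 (chr6:22297791-22297835, plus strand): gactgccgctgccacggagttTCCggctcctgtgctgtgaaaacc
Wnt7a and Wnt7b differed at 6 of these 45 bases, Wnt5a and Wnt5b at 8, and Wnt9a and Wnt16 at 16. The closest of all 45 pairs was Wnt2 and Wnt2b, with 5 differences. Over whole transcripts the longest run that 2 of the 10 ligands shared was 29 bases, atggacggctgcgagctcatgtgctgtgg in Wnt5a and Wnt5b, which is shorter than the 50 bp reads. No read of full length without errors could therefore fit 2 of these ligands. Against all other genes, 7 of the 10 ligands had no 50-base window in common with another gene. The exceptions were Wnt4 (4.33% of its windows), Wnt5a (3.38%) and Wnt7b (3.88%), with both strands compared. Wnt7b shared windows only with AU022754, which lies antisense at the same place. Wnt5a shared windows with 4 genes, among them its antisense gene Gm2670, and Wnt4 with 665 genes.

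Library depth sets how finely these genes were measured. Between 11737554 and 44447006 reads per mouse had been counted on genes, so that 1 count stood for 0.0225 to 0.0852 CPM (counts scaled to a common library size). The raw counts of Wnt7b were 492 to 2034 per mouse, those of Wnt9a 96 to 359 and those of Wnt16 only 11 to 48. Markers of CA1, CA3 and dentate granule cells were detected in every library. Of the markers of other tissues, 9 meningeal fibroblast genes and 6 striatal genes were also detected in every library. Of 8 choroid plexus genes, only 1 was at 0 in any library. This was the channel gene Kcne2, which had the lowest mean of that list (0.159 CPM). The share of uniquely aligned reads that fell on no gene was 8.34% to 12.9%.

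Divided by exon length, the levels of the ligands spanned a 40.3-fold range of means. Wnt7b, known for its role in dendrite growth and in the vessels of the brain, stood first with 9.13 ± 0.868 CPM per kb (SD over all 11 mice). Wnt7a, which acts on presynaptic assembly, followed with 5.20 ± 0.332 CPM per kb, and Wnt4, best known from kidney and ovary development, with 3.55 ± 0.391. These 3 ligands were followed by Wnt9a, a joint and limb signal, with 2.85 ± 0.784 CPM per kb. Wnt2, a signal of placenta and lung development, came to 2.11 ± 0.269 CPM per kb, and Wnt5a, the classical activator of signalling without beta-catenin, to 2.04 ± 0.274. Wnt10a, a signal of teeth and skin appendages, had 0.780 ± 0.238 CPM per kb, and Wnt5b, a cartilage signal, had 0.728 ± 0.182. Wnt2b, known from the developing eye and lung, had 0.628 ± 0.102 CPM per kb. Wnt16, a regulator of cortical bone, was lowest with 0.226 ± 0.0556. The middle of the 16242 tested protein-coding genes lay at 4.01 CPM per kb, and only Wnt7b and Wnt7a were above it in mean level.

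**Figure D1:**
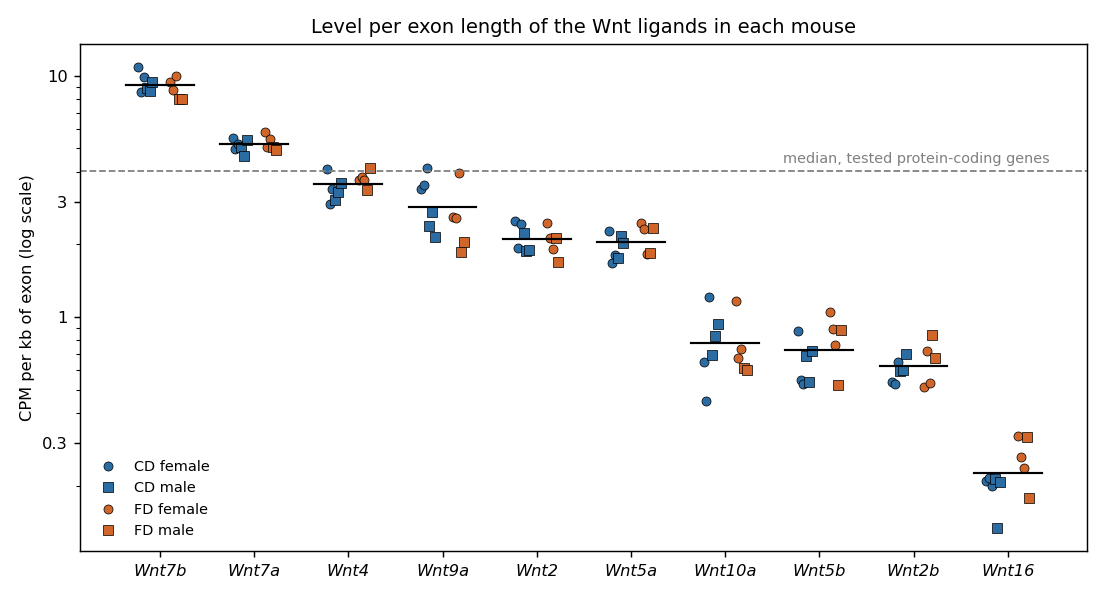
Level of each Wnt ligand per kb of exon (y axis, TMM-normalized CPM per kb, log scale) in each of the 11 mice, with CD mice in blue, FD mice in orange, females as circles, males as squares and the mean over all mice as a bar. The dashed line is the median of the tested protein-coding genes at 4.01 CPM per kb, and the ranges of Wnt7b and Wnt7a do not touch each other or those of the ligands below.

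Neighbours in this order were set apart by their ranges in 4 of 9 cases. Wnt7b was above Wnt7a, Wnt7a above Wnt4, Wnt5a above Wnt10a and Wnt2b above Wnt16 in every mouse and with no overlap between mice. The ranges of Wnt4 and Wnt9a overlapped, as did those of Wnt9a and Wnt2, of Wnt2 and Wnt5a, of Wnt10a and Wnt5b, and of Wnt5b and Wnt2b. Wnt2 exceeded Wnt5a in 7 of 11 mice and Wnt10a exceeded Wnt5b in 6 of 11, so that neither pair has a settled order. Of the summed level of the 10 ligands, 27.2 ± 2.15 CPM per kb (SD over 11 mice), Wnt7b contributed 33.5% ± 1.24 and Wnt7a 19.1% ± 0.946. Exon lengths were taken from every annotated transcript together. With the longest transcript alone, Wnt7b came to 13.2 CPM per kb, Wnt5a ranked above Wnt2, and Wnt10a ranked below Wnt5b and Wnt2b.

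The ligands also differed in how much they varied between mice. The coefficient of variation of Wnt7a was 6.38%, close to the 5.51% that counting alone would give. Wnt9a varied by 27.5% where counting would give 7.41%, and Wnt7b by 9.51% against 3.34%. For Wnt16 the spread of 24.6% was near the counting value of 22.5%. Wnt10a had the largest coefficient of variation, 30.5% against 15.9%, with counting error not subtracted and with 13 to 102 counts per mouse.

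The question of the maternal diet was asked first. None of the 10 ligands passed the adjusted p threshold of 0.1 between FD and CD F1 mice (quasi-likelihood test of edgeR, Benjamini-Hochberg over 20589 genes, adjusted p = 0.999956 for each), and DESeq2 called 0 of them as well. Over all tested genes, 0.068% passed. At an unadjusted p under 0.05, edgeR had 1 ligand, Wnt16, where 2.59% of all genes were found, and DESeq2 had 0. The fitted level was higher in FD mice for 6 of 10 ligands, against 48.2% of all genes, and the median log2 fold change was 0.06 against a median of 0.00 over all genes, with a median size of 0.10 against 0.07. No ligand had diet groups without overlap, which 0.505% of all genes had.

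**Figure D2:**
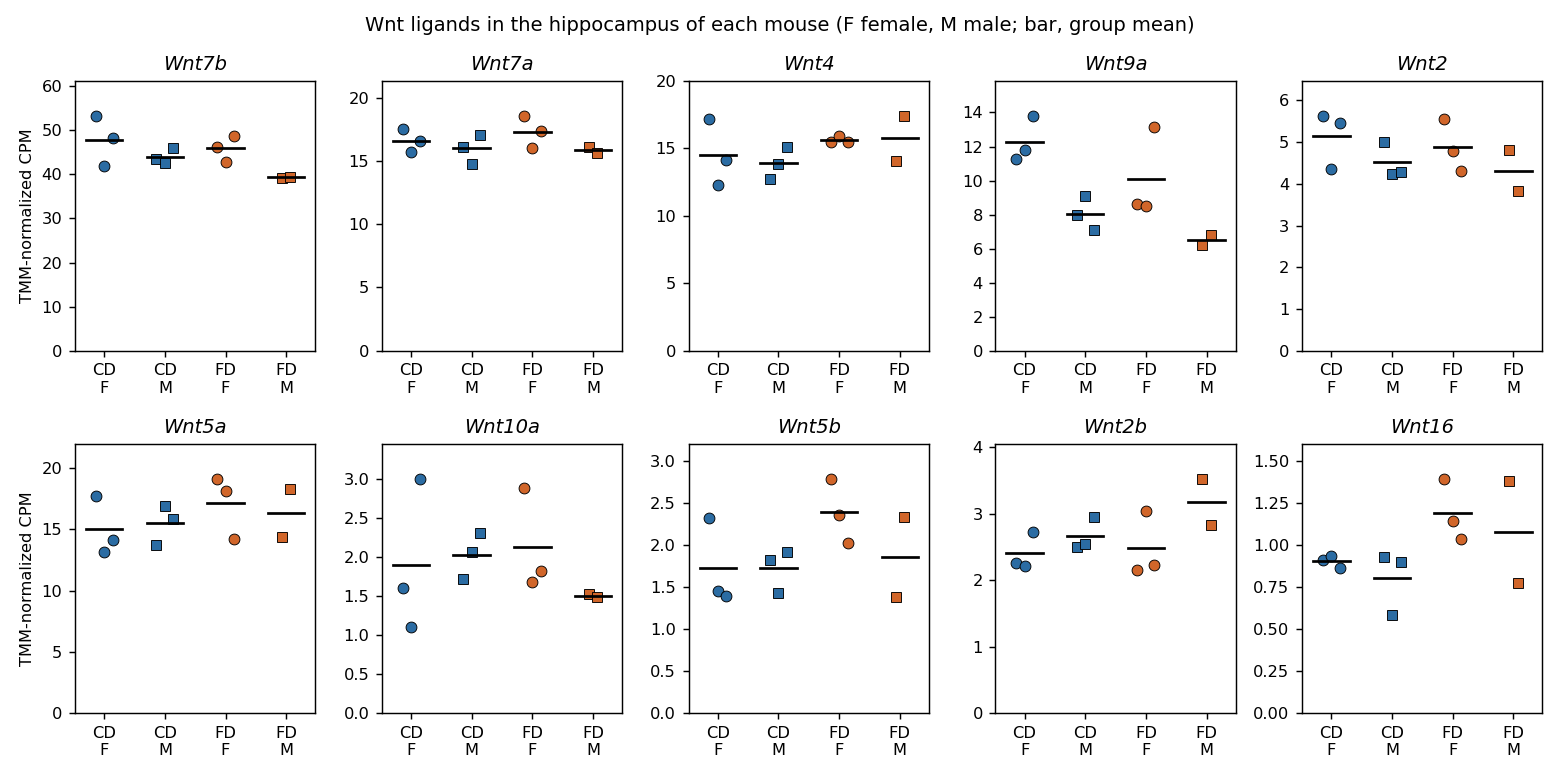
TMM-normalized CPM (y axes, each from 0) of each Wnt ligand in each mouse, by diet and sex (CD blue, FD orange, F female, M male), with the group mean as a bar. Wnt16 is above the highest CD mouse in 4 of 5 FD mice, and the group mean of Wnt9a is lower in males than in females within each diet.

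Wnt16 (chr6:22288227-22298522, plus strand) had the largest fitted diet difference of the 10. In CD females it was at 0.911, 0.939 and 0.865 CPM and in CD males at 0.931, 0.583 and 0.903 CPM. In FD females it was at 1.40, 1.14 and 1.04 CPM and in FD males at 1.38 and 0.778 CPM. Thus 4 of 5 FD mice lay above the highest CD mouse, and the fifth, FD male 2, lay below 5 of the CD mice. The log2 fold change was 0.45 (standard error 0.189, 95% interval 0.05 to 0.85), with an unadjusted p of 0.0308 in edgeR's test and a two-sided exact permutation p of 0.0541 over all splits of the mice. The lowest counts, 11 in each of 3 mice, leave a wide counting error. DESeq2 gave an unadjusted p of 0.0646. In edgeR the unadjusted p was also above 0.05 without CD male 2, without FD female 1 or without FD male 1, and the highest of these was 0.106.

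Wnt5b, Wnt5a and Wnt4 had the next largest differences among ligands with a higher fitted level in FD mice, and none was past either level with all mice. Wnt5b was at 1.40, 1.64 and 2.32 CPM (lowest, median and highest of the CD mice) and at 2.79, 2.36 and 2.03 CPM in FD females and 1.38 and 2.33 CPM in FD males. Its log2 fold change was 0.29, with a standard error of 0.184 and an unadjusted p of 0.13 in edgeR. With single mice left out it ran from 0.16 (without FD female 1) to 0.42, and edgeR's unadjusted p was under 0.05 without FD male 1 (0.0238) or without CD female 1 (0.0455). Wnt5a was at 13.1, 15.1 and 17.7 CPM in the CD mice and at 19.1, 18.1, 14.2, 14.4 and 18.3 CPM in the FD mice, females first. Its log2 fold change was 0.13, with a standard error of 0.101 and an unadjusted p of 0.216 in edgeR. For both genes 3 of 5 FD mice exceeded the highest CD mouse and the other FD mice lay within or below the CD range. Wnt4 was at 12.3, 14.0 and 17.2 CPM in the CD mice and at 15.5, 15.9, 15.4, 14.1 and 17.4 CPM in the FD mice. The fitted log2 difference was 0.12, with a standard error of 0.0876 and an unadjusted p of 0.174 in edgeR. Without CD female 1 the log2 difference of Wnt4 was 0.19 (edgeR unadjusted p = 0.0296). All 5 FD values of Wnt4 were above the CD median, but only 1 was above the highest CD value.

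Markers of meningeal fibroblasts, the matrix-forming cells of the membranes around the brain, moved with these 3 ligands. All 9 markers of the list had a higher fitted level in FD mice, with a median log2 fold change of 0.39 and 1 of 9 at an unadjusted p under 0.05, and none was at 0 in any library. Their summed level was 90.5 to 224 CPM in CD mice and 121 to 369 CPM in FD mice. Without FD male 2, the mouse at 369 CPM, 7 of 9 were higher and the median was 0.05. The 4 mice with the highest sums, FD male 2, FD female 2, FD female 1 and CD female 1, were also the 4 highest mice for Wnt4, for Wnt5a and for Wnt5b. Over the 11 mice, Pearson's r with the summed marker level was 0.74 for Wnt5a, 0.71 for Wnt5b and 0.56 for Wnt4, given without a test since ligands and markers share libraries and scaling. An r as high was found for 1.77%, 2.07% and 6.86% of the 14437 genes whose mean reached 1 CPM. Astrocyte markers had a Pearson's r of 0.59 with Wnt4, 0.56 with Wnt5a and 0.53 with Wnt5b, and an r as high was found for 2.58%, 3.72% and 5.08% of these genes. Without the 2 mice farthest from the median astrocyte sum, r was 0.30, 0.43 and 0.54 in the same order. Without the 2 farthest from the median meningeal sum, the meningeal r was 0.44 for Wnt4, 0.76 for Wnt5a and 0.68 for Wnt5b. Of the 5 astrocyte markers 4 had a higher fitted level in FD mice, none at an unadjusted p under 0.05, with sums of 1510 to 1694 CPM in CD and 1560 to 1625 CPM in FD mice. Wnt16 (r = -0.00) and Wnt2b (r = -0.01) did not follow the meningeal markers in this way. The part of meningeal tissue or astrocytes in the differences was not tested, and in whole tissue a change in the number of cells of a type and a change of RNA per cell cannot be told apart. These relations were looked for after the values of the ligands had been seen, among 120 between 10 ligands and 12 marker lists. How many of all genes share their 4 highest mice with a marker sum was not counted. Wnt7b also shared its 4 highest mice with interneuron, with oligodendrocyte and with striatal markers. By Pearson's r, others of the 120 were stronger. Wnt7a had an r of 0.84 with interneuron markers (as high in 0.367% of genes) and of 0.81 with CA1 markers (1.79%).

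**Figure D3:**
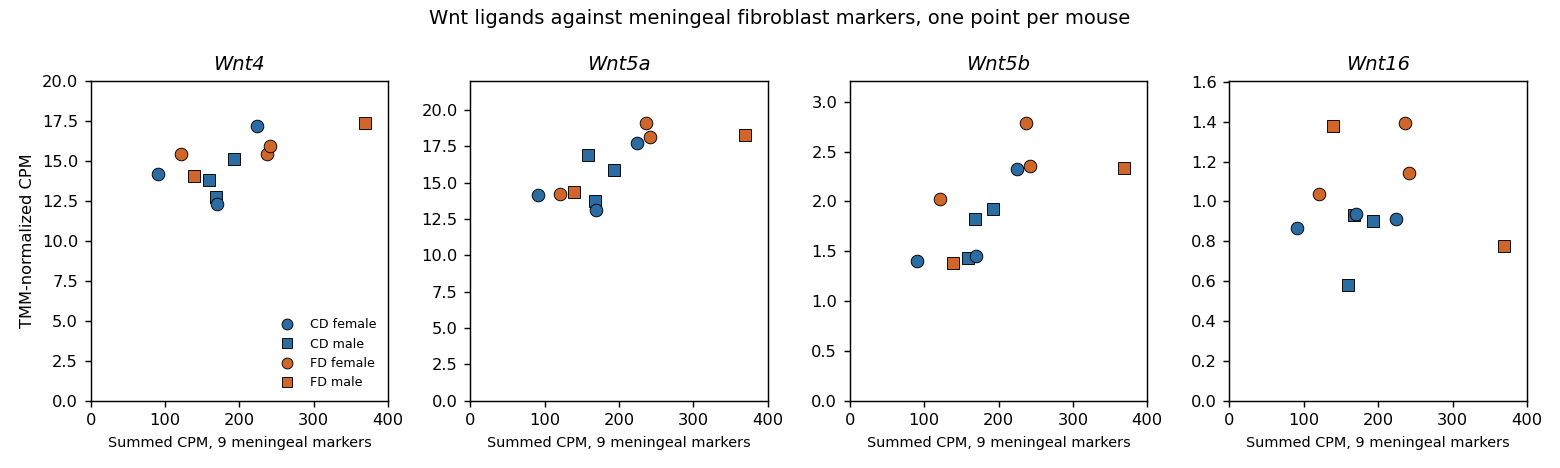
TMM-normalized CPM of Wnt4, Wnt5a, Wnt5b and Wnt16 (y axes, each from 0) against the summed CPM of 9 meningeal fibroblast markers (x axis) in each mouse, CD blue, FD orange, females as circles, males as squares. The 4 mice with marker sums of 224 to 369 CPM are the 4 highest for Wnt4, Wnt5a and Wnt5b, while Wnt16 shows no such order.

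Wnt9a (chr11:59306928-59333552, plus strand) had the largest fitted difference in the other direction. It was at 7.11, 10.2 and 13.8 CPM in the CD mice and at 8.63, 8.53, 13.1, 6.19 and 6.79 CPM in the FD mice. The log2 fold change was -0.19 (95% interval -0.59 to 0.21, edgeR unadjusted p = 0.329). With single mice left out it ran from -0.09 (without FD male 1, and likewise without CD female 3) to -0.40 (without FD female 3, edgeR unadjusted p = 0.0311). The groups overlapped over most of their range, and both contain mice of both sexes, which differ in this gene. In edgeR the log2 fold change was -0.27 among females alone (unadjusted p = 0.141) and -0.28 among males alone (unadjusted p = 0.0701). With sex in the model it was -0.28 (standard error 0.116, unadjusted p = 0.0263, adjusted p = 0.922 in edgeR). Choroid plexus markers also had lower fitted levels in FD mice, in 7 of 8 genes, with 2 at an unadjusted p under 0.05. Sums were 36.0 to 90.7 CPM in CD mice (CD female 3 highest, CD male 2 next with 63.1) and 30.9 to 44.2 CPM in FD mice. Pearson's r of Wnt9a with these sums was 0.52, as high in 9.68% of genes. It was 0.30 without the 2 mice farthest from the median sum, and CA3 (0.78) and oligodendrocyte markers (0.74) were followed more closely. Without the 2 mice farthest from their own median sums, r was 0.52 for CA3 and 0.59 for oligodendrocyte markers. The authors had checked the RNA by qPCR for choroid plexus transcripts with Otx2 and Prlr, whose log2 diet differences here were -0.09 and -0.01. Other markers of the list differed more. The 2 at an unadjusted p under 0.05 were Ttr (-1.19, edgeR unadjusted p = 0.0212) and Kcne2 (-1.64, edgeR unadjusted p = 0.0456). Aqp1 was the 1 marker with a higher fitted level in FD mice (0.19). The channel gene Kcne2 was the 1 choroid plexus marker at 0 in any library, and the part of this tissue in the difference was not tested.

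The diet differences of Wnt7a and Wnt7b, the ligands with the highest levels, had the narrowest intervals. Wnt7a was at 14.8, 16.3 and 17.5 CPM in CD mice and at 18.5, 16.1, 17.3, 16.1 and 15.6 CPM in FD mice, and its log2 fold change of 0.04 had a 95% interval of -0.11 to 0.19. Wnt7b was at 42.0, 44.7 and 53.2 CPM in CD mice and at 46.3, 42.9, 48.7, 39.3 and 39.4 CPM in FD mice, a log2 fold change of -0.08 with an interval of -0.24 to 0.07. The intervals allow a rise to 1.14-fold for Wnt7a and a fall to 0.847-fold for Wnt7b. Both FD males were below every CD mouse in Wnt7b, and the 3 FD females lay within the CD range.

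The remaining ligands gave fold changes near 0 with wider intervals. Wnt2 had a log2 difference of -0.04 (standard error 0.118), and its values were 3.82 to 5.55 CPM in FD mice and 4.24 to 5.62 CPM in CD mice. Wnt2b had 0.08 (standard error 0.147), with 2.15 to 3.52 CPM in FD and 2.22 to 2.96 CPM in CD mice. Wnt10a had -0.02 (standard error 0.222), and its values ran from 1.48 to 2.88 CPM in FD mice and from 1.11 to 3 CPM in CD mice. The signs of Wnt2, Wnt2b and Wnt10a each turned when certain single mice were left out, so no direction can be given for them.

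**Figure D4:**
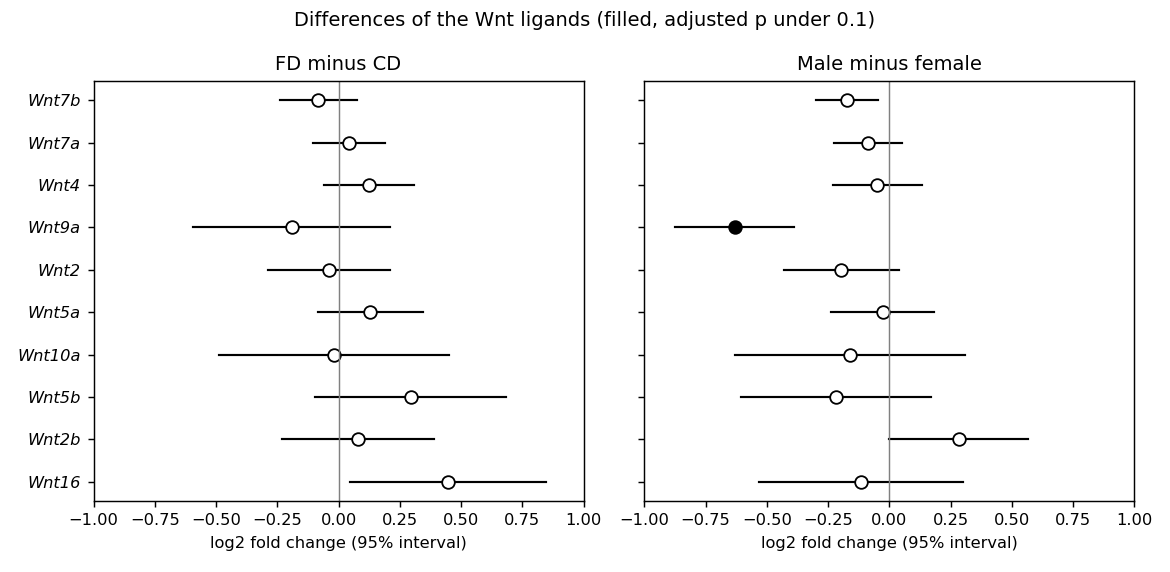
Fitted log2 fold change of each Wnt ligand (points) with its 95% interval (lines) between FD and CD mice (left) and between males and females (right), ordered by level per kb. The interval of Wnt16 lies above 0 for diet. Those of Wnt9a and Wnt7b lie below 0 for sex, where Wnt9a is the 1 filled point with an adjusted p under 0.1.

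Both diets held both sexes, so males and females could be compared with diet in the model. Wnt9a was lower in males. In CD mice it was at 11.3, 11.8 and 13.8 CPM in females and at 7.95, 9.11 and 7.11 CPM in males. In FD mice it was at 8.63, 8.53 and 13.1 CPM in females and at 6.19 and 6.79 CPM in males. Over both diets the sexes overlapped, and 4 of 5 males lay below the lowest female. The log2 fold change of males against females was -0.63 (standard error 0.116, 95% interval -0.87 to -0.39, adjusted p = 0.0391 in edgeR's quasi-likelihood test), that is 0.646-fold, and the two-sided exact permutation p over all mice was 0.013. It was -0.61 among CD mice and -0.65 among FD mice.

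This call stands among many. An adjusted p under 0.1 between the sexes was found for 6.11% of all genes, and 3.03% of all genes passed and were lower in males. Of the 10 ligands 1 passed, and 2 were at an unadjusted p under 0.05, against 20.3% of all genes. No ligand was without overlap between the sexes, against 1.78% of all genes. The adjusted p of Wnt9a rose above 0.1 without CD male 1 (0.143), without CD female 3 (0.155) or without FD male 2 (0.11), although the fold change stayed between -0.67 and -0.54 whichever mouse was left out.

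The share of reads that fell on no gene was 8.34% to 12.2% in females and 10.4% to 12.9% in males. With this share in the model, the fold change of Wnt9a was -0.62 (unadjusted p = 0.000847, adjusted p = 0.474 in edgeR). Markers of several cell groups were also lower in males. Oligodendrocyte markers were lower in 5 of 5 genes, 1 of them called, with a summed level of 3719 to 5784 CPM in females and 3611 to 4520 CPM in males. Interneuron markers were lower in 4 of 6 genes, 2 of them called (Npy and Sst), with sums of 828 to 932 CPM in females and 825 to 870 CPM in males. Striatal markers were lower in 6 of 6 genes, none called, with sums of 49.4 to 91.1 CPM in females and 47.2 to 52.9 CPM in males. Microglia markers were lower in 4 of 5 genes, none called, with 274 to 295 CPM in females and 261 to 292 CPM in males. CA3 markers were lower in 3 of 5 genes, none called, with 206 to 244 CPM in females and 201 to 216 CPM in males. CA1 markers were lower in 5 of 5 genes, none called, and astrocyte markers in 3 of 5, 1 of them called. Endothelial, meningeal fibroblast and thalamus markers went the other way, with 1 of 5, 2 of 9 and 2 of 5 genes lower in males. Over the 11 mice, Pearson's r of Wnt9a with the summed level was 0.74 for oligodendrocyte, 0.61 for striatal and 0.61 for microglia markers. An r as high was found for 2.45%, 6.50% and 5.92% of 14437 genes. For interneuron markers r was 0.40 (29.4% of genes) and for CA3 markers 0.78 (0.436%). It was -0.79 for thalamus, -0.61 for endothelial and -0.53 for meningeal fibroblast markers, as a description. Without the 2 mice farthest from the median of each sum, r was 0.59 for oligodendrocyte, 0.71 for striatal and 0.64 for microglia markers. It was then 0.24 for interneuron and 0.52 for CA3 markers, and -0.71, -0.52 and -0.12 for thalamus, endothelial and meningeal fibroblast markers. None of these markers was at 0 in any library, and their part in the difference of Wnt9a was not tested.

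Wnt7b came next, with a log2 difference of -0.17 between males and females (standard error 0.0608, unadjusted p = 0.0109, adjusted p = 0.123 in edgeR). Females were at 53.2, 42.0 and 48.3 CPM (CD) and at 46.3, 42.9 and 48.7 CPM (FD), and males at 43.4, 42.5 and 45.9 CPM (CD) and at 39.3 and 39.4 CPM (FD). With the share of reads on no gene in the model, it was -0.06 (unadjusted p = 0.338 in edgeR). Wnt2b was the 1 ligand with a higher fitted level in males, by 0.28 on the log2 scale (standard error 0.135, edgeR unadjusted p = 0.0505). The other 7 ligands had fold changes of -0.22 to -0.03, each with an interval that held 0.

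Whether the diet acted differently in the sexes was tested by the interaction of diet and sex. No ligand was called by edgeR, with 0 of 10 at an adjusted p under 0.1 and 0 of 10 at an unadjusted p under 0.05. Of all genes, 0% passed at the adjusted and 1.9% at the unadjusted level. The widest gap was that of Wnt10a, with a log2 fold change between diets of 0.23 in females and -0.42 in males (interaction -0.67, standard error 0.442, unadjusted p = 0.15). With single mice left out this interaction ran from -0.33 (without FD female 1) to -1.07 (without CD female 3, edgeR unadjusted p = 0.0158). With 2 FD males, intervals of the interaction were wide, from -1.60 to 0.27 for Wnt10a.

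Other genes of the pathway were counted by their role, and none of the 87 tested genes in 7 lists passed the adjusted threshold for diet in edgeR. Of these 87 genes only Fzd7, Ccnd1 and Myc were at an unadjusted p under 0.05, where 2.59% of all genes were found. Genes are named below for the smallest p of their list. The counts of direction stand against 48.2% of all genes with a higher fitted level in FD mice. Of 4 genes for acylation and release of the ligands, 2 were higher in FD mice, and Porcn was at 85.1 ± 4.54 CPM (SD, n = 6) in CD and 80.8 ± 3.88 CPM (SD, n = 5) in FD mice. Among receptors and coreceptors, 18 of 18 had a higher fitted level in FD mice, with a median log2 fold change of 0.10. The largest was Fzd7, a Frizzled receptor found in many stem cells, with 10.1 ± 0.84 CPM in CD and 11.9 ± 0.995 CPM in FD mice (log2 fold change 0.23, edgeR unadjusted p = 0.0124). The even direction of the receptors was not stable, since 14 to 17 of 18 were higher when single mice were left out, 15 in females alone and 13 in males alone.

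Of 11 secreted inhibitors tested, 7 were higher in FD mice, and Dkk3, an abundant neuronal secreted protein of the Dickkopf family, was at 498 ± 22.9 CPM in CD and 471 ± 15.6 CPM in FD mice (log2 fold change -0.08, unadjusted p = 0.105). In the R-spondin arm, which controls how many receptors stay at the surface, 7 of 8 were higher, with Znrf3 at a log2 fold change of 0.10 (edgeR unadjusted p = 0.165). Of 22 intracellular signalling genes 10 were higher, and none was at an unadjusted p under 0.05. Of 16 TCF factors and targets 8 were higher. Ccnd1, the cyclin of the G1 phase, was at 36.4 ± 3.11 CPM in CD and 40.4 ± 3.07 CPM in FD mice (log2 fold change 0.15, edgeR unadjusted p = 0.0389). The proliferation factor Myc was at 5.71 ± 0.573 and 4.55 ± 0.753 CPM (log2 fold change -0.30, edgeR unadjusted p = 0.018). These 2 targets thus had fold changes of opposite sign.

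**Figure D5:**
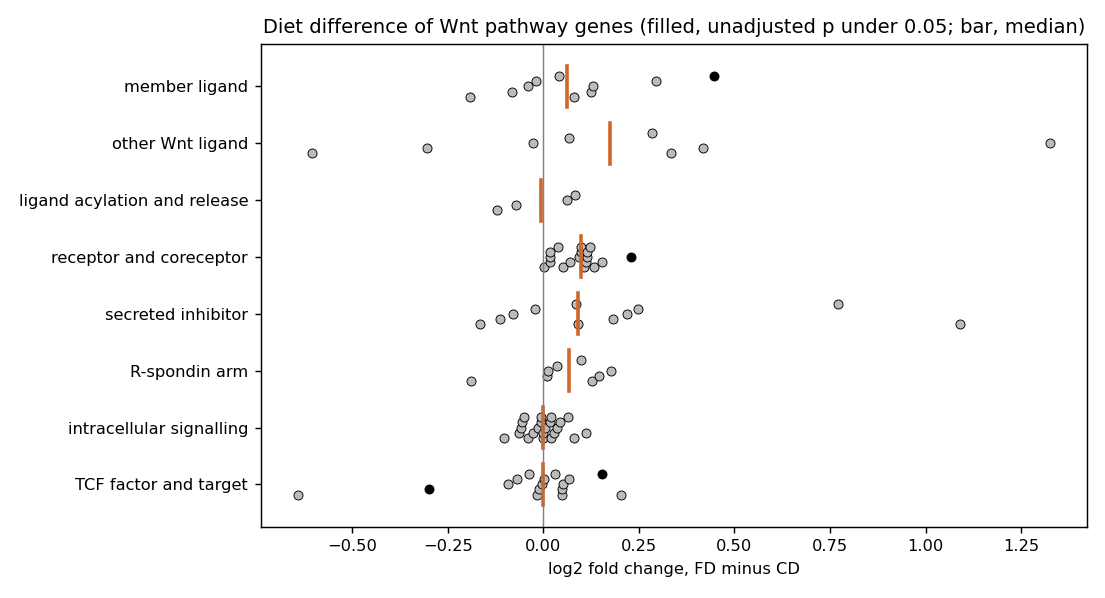
Fitted log2 fold change between FD and CD mice (x axis) of each tested Wnt pathway gene, grouped by role (rows), with the median of each group as a bar and genes at an unadjusted p under 0.05 filled. The receptors lie between 0 and 0.25 with a median of 0.10, and the intracellular genes are centred on 0.

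The 9 ligands of the tables that were not among the 10 reached 530 counts at most over the 11 mice. Wnt3 had these 530 counts, more than Wnt5b (513), Wnt10a (516) or Wnt16 (258). Wnt9b had 247 counts and Wnt11 had 209, and the remaining 6 had 5 to 91 counts. Wnt8a, with 5 counts, fell below the minimum of 10 counts. Of the 8 tested, 5 had a higher fitted level in FD mice and none was at an unadjusted p under 0.05. The smallest p-values were those of Wnt6 (log2 fold change 1.33, edgeR unadjusted p = 0.0633) with 0 to 13 counts per mouse and Wnt10b (-0.61, edgeR unadjusted p = 0.0697) with 4 to 22. At the counts of Wnt6 and Wnt10b a few reads decide the fold change.

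For the 6 ligands with a mean of at least 100 counts, the genes with the most similar profile over the 11 mice were sought among 14436 genes. Wnt7b was most like Blvrb, a biliverdin reductase (Pearson's r = 0.97, 0.96 without the 2 mice farthest from the median), and the ribosomal protein gene Rps20 (r = 0.97). Wnt9a was most like the pseudouridine synthase gene Pus1 and Adck1 (r = 0.93 for each), and both of these had an adjusted p of 0.0641 between the sexes in edgeR, with log2 fold changes of -0.28 and -0.22. Wnt5a was most like Aox3 (r = 0.93), an aldehyde oxidase, and Islr (r = 0.92), whose fitted diet differences were 0.55 and 0.29. Wnt7a was most like Ssbp3 (r = 0.94), Wnt2 like the uridylyltransferase gene Tut1 (r = 0.95) and Wnt4 like Cpxm1 (r = 0.88). The highest of so many correlations over 11 mice is large in any case, and these values describe the profiles only.

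Some of the ligands share their place with another gene. AU022754 runs antisense to Wnt7b (chr15:85535437-85582473) and overlaps 324 bp of its exons, and it had 851 counts over the 11 mice against 11678 for Wnt7b. Gm2670 runs antisense to Wnt5a over 358 bp of exon, with 55 counts against 4137. The strand setting of the counting is not given in the sources used here. How reads in these parts were assigned, or whether they were left out as ambiguous, is therefore not known. Wnt5b lies in the same region as Fbxl14 on the opposite strand, but their exons have 0 bp in common.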

How the data were processed

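Hippocampal RNA of 11 mice was sequenced as 50 bp single-end reads. After trimming, the authors aligned them to mm10 (GRCm38) with STAR 2.4.0 and, by their methods, counted unique alignments per gene with featureCounts. They deposited raw counts per gene for each mouse, without normalization. The 5 summary lines of each table have the form HTSeq writes and were left out. They hold 24.4% to 26.9% of all reads. Strand setting and annotation release are not given in the sources used here. Of 38293 identifiers, 36429 had a name in GENCODE M21.

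Genes with at least 10 counts in total were kept (20589). Counts were scaled by TMM and tested with the quasi-likelihood test of edgeR 4.0.16 in R 4.3.3, FD against CD without covariates, males against females with diet as covariate, and their interaction, each over all genes with Benjamini-Hochberg adjustment and a threshold of 0.1. CPM values are TMM-normalized, with a prior count of 2 for log2 values. The standard error is the fold change divided by the square root of F. Exact permutation tests used all splits of the mice, whose smallest two-sided p is 0.00433. Alternatives were DESeq2 1.42.0, other scalings, filters and covariates, a replicate block, single sexes or diets, and leaving out each mouse. The scripts were tested on simulated counts. Tables and figures were made with Python 3.11.15, pandas 2.3.3 and matplotlib 3.10.9. Pairs of mice of one group differed far beyond sampling noise (chi-square per degree of freedom at least 4.13). Members and gene lists were chosen with earlier results of these data known. Named were all 10 ligands, in each pathway list up to 2 genes with the smallest diet p, and for ligands with a mean of at least 100 counts the 2 genes with the highest correlation. Marker sums were compared with the ligands after the values had been seen.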

Additional observations from a re-analysis of the deposited data

Results flagged for a closer look

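Of the 20 sets of values examined (10 ligands in 2 diet groups), 2 held a mouse far from the rest of its group by Dixon's criterion, and chance alone marks about 1 in 20. Wnt10a was at 2.88 CPM in FD female 1, while the other FD mice lay between 1.48 and 1.82 CPM. Wnt16 was at 0.583 CPM (11 counts) in CD male 2, below the 0.865 to 0.939 CPM of the other CD mice.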

How the results depend on the processing

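Under every alternative run for diet, 0 of 10 ligands passed the adjusted threshold. Ligands at an unadjusted p under 0.05 for diet numbered 0 with DESeq2, in males alone or in females alone, 2 (Wnt16 and Wnt9a) with sex as a covariate or with sex and the share of reads on no gene (added after seeing the data), and 0 to 3 with single mice left out (3 without CD female 1, namely Wnt16, Wnt5b and Wnt4). Wnt10a turned to 0.23 in females alone, and with single mice left out its log2 difference ran from -0.26 to 0.10, that of Wnt2 from -0.11 to 0.020 and that of Wnt2b from -0.037 to 0.19. Genes called for diet, 14 of all, numbered 8 with edgeR's own filter, 1 with at least 10 counts in every mouse, 22 with the share of reads on no gene, 5 with sex as well, 2 in males, 1 in females and 3 to 12 with single mice left out (12 without FD male 2).

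Replicate numbers were shared by CD and FD mice. With the number within each sex as a replicate block, 23 genes and 0 ligands were called and 2 ligands were at an unadjusted p under 0.05, Wnt9a (log2 fold change -0.33) and Wnt16, while Wnt10a turned to 0.037. For Wnt9a, edgeR gave an unadjusted p of 0.00125 (standard error 0.0878) and an adjusted p of 0.306 under this block. The same-numbered mice correlated in their deviations from the means of diet and sex by 0.0051, 0.097, 0.047, 0.39 and 0.26, so the numbers were not taken as pairs. Each of the 5 FD mice nevertheless correlated best with its own number within its sex. With only the diet means removed, which keeps the sex difference, the correlations were 0.31 to 0.54. Whether the numbers pair the mice is thus not settled.

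For sex, ligands called numbered 2 (Wnt7b beside Wnt9a) with DESeq2 or at least 10 counts in every mouse, 0 with the share of reads on no gene, in CD mice or in FD mice alone, and 0 to 2 with single mice left out. At the unadjusted level 1 ligand was found with that share and 1 in CD mice alone. All alternatives for sex except the other scaling and single mice left out were added after seeing the data. Genes called, 1257 of all, numbered 2043 with DESeq2, 9 with that share, 5 in CD mice, 5 in FD mice, and 18 (without CD male 1) to 3244 (without CD female 2). They exceeded the main count by over 1.5 times only without CD female 2 or FD female 2 (2762) and with DESeq2. Signs turned with that share for Wnt4 (0.027), Wnt5b (0.022), Wnt7a (0.0022) and Wnt16 (0.019), in CD mice for Wnt5a (0.021) and Wnt10a (0.12), and in FD mice for Wnt4 (0.0086). With single mice left out, Wnt4 ran from -0.10 to 0.035, Wnt5a from -0.073 to 0.041, Wnt10a from -0.30 to 0.0040 and Wnt16 from -0.26 to 0.0075. The interaction called 0 to 1 genes and had 0 to 1 ligands at the unadjusted level (Wnt10a without CD female 3). The causes of these changes were not tested. At 11 to 48 counts per mouse, differences in Wnt16 below its counting error were not detectable.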
